A study of Mus musculus with 3 samples.

Results

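Most of the genes described here act on collagen once its chains have been made, or bind it. They are 2 crosslinking enzymes (Lox and Loxl1), the collagen chaperone Serpinh1, 3 proteins that bind collagen fibrils (Fmod, Comp and Tnxb), the collagen receptor Ddr2, the annexin Anxa2, and the bone morphogenetic protein (BMP) antagonist Grem1. These 9 genes were chosen by name from the genes that stood beside ranked Runx3 windows in mouse chondrocytes. They were 9 of the 1966 genes listed as neighbours of a window, and 12 of the 1000 windows had at least 1 of them as a neighbour. Ranks, distances and neighbours were what chose the genes, so they are given as a description and were not tested.

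The study used chromatin immunoprecipitation followed by sequencing (ChIP-seq) of Runx3 in superficial zone (SFZ) cells, the chondrocytes of the cartilage layer that faces the joint. There were 3 libraries, 1 per group, all from C57BL/6 SFZ chondrocytes of 5-day-old mice that received by lipofection (Lipofectamine 2000) a vector for 3xFLAG-tagged Runx3. The groups were RUNX3-FLAG, pulled down with the FLAG antibody clone M2, IgG, pulled down with an anti-mouse IgG antibody, and input, which had no antibody. Every library therefore carried the tagged Runx3 from the vector, and binding of the cells' own Runx3 was not measured. With 1 library per group there was no replicate error and no comparison of conditions. The files gave ranked positions without read counts or heights, so depth is unknown, and positions cannot show whether a cell type marker or any of the 9 genes was expressed.

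Fibrillar collagen folds in the endoplasmic reticulum with the help of chaperones, is secreted, trimmed and packed into fibrils, and is then fixed by covalent crosslinks that lysyl oxidases start by oxidising lysine residues. Small leucine-rich proteoglycans and other matrix proteins coat the fibrils and set their width and spacing, and receptors on the cell surface sense them. In articular cartilage the fibrils run parallel to the joint surface in the superficial zone. Runx proteins bind DNA through the Runt domain, at motifs close to TGTGGT, as a pair with Cbfb.

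Both ranked lists came from the RUNX3-FLAG library. The methods state peak calling against input without naming a list. The list named for RUNX3-FLAG alone is called the main list here, and it was assumed to be that one. The other list also carried IgG in its name without a stated control, and goes here by the name IgG-named list. Per list there were 1000 windows of 101 bp, and rank 1 is the highest. A gene counted as a neighbour of a window when the authors' table listed it there, at up to 10 Mb. Distances run from the window centre to the transcription start site (TSS), and positions are on mm9, counted from 1.

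The windows are shown next to let their letters be read for the Runx motif, which 10 of the 12 held and 66.1% of all windows held. It was sought here on both strands as TGTGGT, as TGTGGC, as TGCGGT or as TGCGGC. Capitals mark each match, and a match on the opposite strand reads as its reverse complement (in these windows, ACCACA for the first and GCCACA for the other TGT form). All sequences are the + strand of mm9, 5′ to 3′. They follow rank in the main list, with the rank 245 window of the IgG-named list set beside its Fmod partner. The Loxl1 stretch covers only the bases before the first annotated Loxl1 start, and the Lox window is given by position alone.
Fmod, rank 46, chr1:135838617-135838717: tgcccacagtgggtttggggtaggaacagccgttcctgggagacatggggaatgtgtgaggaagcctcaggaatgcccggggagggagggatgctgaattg
Fmod, rank 245 of the IgG-named list, chr1:135838315-135838415: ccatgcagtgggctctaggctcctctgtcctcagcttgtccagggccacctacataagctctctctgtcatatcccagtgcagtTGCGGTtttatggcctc
Anxa2, rank 111, chr9:69306139-69306239: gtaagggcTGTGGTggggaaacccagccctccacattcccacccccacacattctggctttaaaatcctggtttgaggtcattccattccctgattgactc
Tnxb, rank 257, chr17:34818133-34818233: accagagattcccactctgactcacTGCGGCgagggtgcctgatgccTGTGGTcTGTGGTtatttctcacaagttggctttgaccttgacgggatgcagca
Fmod, rank 327, chr1:135877907-135878007: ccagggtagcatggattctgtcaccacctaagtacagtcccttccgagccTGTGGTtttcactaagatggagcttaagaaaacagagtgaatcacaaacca
Anxa2, rank 331, chr9:69279845-69279945: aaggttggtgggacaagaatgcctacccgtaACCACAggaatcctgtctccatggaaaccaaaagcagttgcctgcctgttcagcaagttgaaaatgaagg
Ddr2, rank 478, chr1:172066645-172066745: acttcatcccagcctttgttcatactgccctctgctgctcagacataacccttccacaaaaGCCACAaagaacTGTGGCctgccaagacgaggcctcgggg
Comp, rank 634, chr8:72895936-72896036: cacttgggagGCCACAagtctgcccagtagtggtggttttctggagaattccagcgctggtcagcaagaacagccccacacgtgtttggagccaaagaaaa
Grem1, rank 673, chr2:113529943-113530043: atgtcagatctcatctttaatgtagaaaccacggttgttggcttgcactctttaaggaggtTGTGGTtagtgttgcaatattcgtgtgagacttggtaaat
Fmod, rank 733, chr1:135936157-135936257: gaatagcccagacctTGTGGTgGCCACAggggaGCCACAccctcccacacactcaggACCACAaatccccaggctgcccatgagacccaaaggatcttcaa
Serpinh1, rank 775, chr7:106509037-106509137: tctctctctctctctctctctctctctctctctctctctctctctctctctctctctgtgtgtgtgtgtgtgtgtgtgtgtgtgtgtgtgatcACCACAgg
Loxl1, bases before the start site, chr9:58161020-58161137: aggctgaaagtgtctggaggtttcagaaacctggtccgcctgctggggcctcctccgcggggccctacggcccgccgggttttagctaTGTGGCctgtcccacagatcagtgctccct

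The 12 windows lay on 7 chromosomes, and 7 of the 9 genes had 1 window each. Anxa2 had 2 and Fmod had 3. Of all 1966 neighbour genes, 291 (14.8%) had at least 2 windows and 63 (3.2%) had at least 3. Ranks ran from 46 to 981 with a median of 556, against 500.5 over all windows. By role, the fibril-binding proteins held 5 windows with a median rank of 327 and Anxa2 held ranks 111 and 331. Of those 5 windows, 3 were of Fmod, at ranks 46, 327 and 733, so the median rests mainly on 1 gene. Tnxb ranked 257 and Comp 634. The 2 crosslinking enzymes and the chaperone had 1 window each, at ranks 784, 981 and 775, all in the lower part of the main list. In the IgG-named list they ranked 791, 464 and 811, so Loxl1 was not in the lower part there. Upstream of the gene's start lay 8 windows, and 4 lay downstream of it.

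To compare the crosslinking enzymes, the windows of Lox and Loxl1 were placed on the annotation. Both encode copper-dependent lysyl oxidases, and Loxl1 is also known for its role in elastic fibres. The Lox window (Entrez gene 16948, minus strand) was chr18:52718547-52718647, 29.2 kb upstream of the Lox TSS, between genes. Lox was its nearest gene, and the other neighbour, Zfp474, had its TSS 57.0 kb away. The window ranked 784 in the main list and 791 in the IgG-named list at the same position. It held 1 Runx match, TGTGGC, 37.5 bp from its centre, with an E-box overlapping it, and 2 more Runx matches lay within 250 bp of the centre.

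Loxl1 (gene 16949, minus strand) was the gene with a window at its own start site. The main-list window, chr9:58160949-58161049, was centred 6 bp upstream of the TSS and ranked 981. In the GENCODE annotation it overlapped exon 1 of 3 Loxl1 transcripts, outside the coding sequence. The IgG-named list placed its window 88 bp farther from the gene, at chr9:58161037-58161137, 94 bp upstream, and ranked it 464. Only 13 bp were in both windows. The main-list window held no Runx match, while the IgG-named window held 1 TGTGGC, 23.5 bp from its centre, in the stretch printed above. Its GC content was 65.3% with 6 CpG, against 54.5% and 2 CpG in the main-list window. Loxl1 was the nearest gene in both lists, and the other neighbour, Tbc1d21, started 57.2 kb from the main-list window.

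Serpinh1 (gene 12406, minus strand) encodes Hsp47, the chaperone that holds procollagen in its triple helix inside the cell. Its window, chr7:106509037-106509137, lay 7.34 kb upstream of the TSS and ranked 775, and the IgG-named window, 8 bp closer, ranked 811. Gdpd5, which starts 21.0 kb away, was the other neighbour. The sequence above was mostly a repeat of 2 letters: 90 of 101 bases were in such runs, and the longest run, 57 bases, was the longest in any of the 1000 windows. Of the 71 stretches of 31 bases in the window, 70 occurred elsewhere in the genome, whereas none did in the other 11 windows. Over all windows, 5 (0.5%) consisted mostly of such repeated stretches and 952 had none. The 1 Runx match was 45.5 bp from the centre, at the edge of the window after the repeat, and it fell outside the IgG-named window. Whether reads were placed correctly there was not tested.

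Fmod (gene 14264, plus strand) encodes fibromodulin, a small leucine-rich proteoglycan that binds collagen fibrils and can bind lysyl oxidase. It had the highest main-list window of the 9 genes, at rank 46, and 2 more at ranks 327 and 733. In the IgG-named list the highest was that of Anxa2, at rank 200, and the best Fmod window ranked 245. The rank 46 window lay 95.4 kb upstream of Fmod, and Prelp, which encodes another leucine-rich proteoglycan of cartilage, was nearer at 20.7 kb and was listed as the nearest gene. Prelp points away from Fmod, so the window is upstream of both. It held no Runx match but 2 TEAD sites (GGAATG), and 4 Runx matches lay outside it, between 84.5 and 150.5 bp from the centre.

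The IgG-named list had no window over the rank 46 window. Its closest entry, chr1:135838315-135838415, ranked 245 with a centre 302 bp away, and it held 1 TGCGGT. Of the 88 main-list windows without an overlapping partner, 4 were in the top 100, and this was 1 of them. The rank 327 window was 56.1 kb upstream of Fmod and 60.0 kb upstream of Prelp, a near equal distance, and it ranked 323 in the IgG-named list with a shift of 2 bp. Its Runx match was 2.5 bp from the centre, and an AP-1 site (TGAATCA) stood 40 bp from the centre.

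The rank 733 window was 2.12 kb downstream of the Fmod TSS and ranked 757 in the IgG-named list at the same position. The authors' table gave its location as 5'UTR, but in GENCODE it was in intron 1 of Fmod-001 and Fmod-002, before the coding sequence. It held 4 Runx matches, the most of the 12 windows, at spacings of 7, 11 and 24 bp between neighbouring matches. Btg2, an antiproliferative gene, started 39.5 kb away and Prelp 118 kb away. The 3 windows were 39.3 and 58.2 kb apart, and 1 more window, not listed for Fmod, lay within 100 kb of its start.

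**Figure D1:**
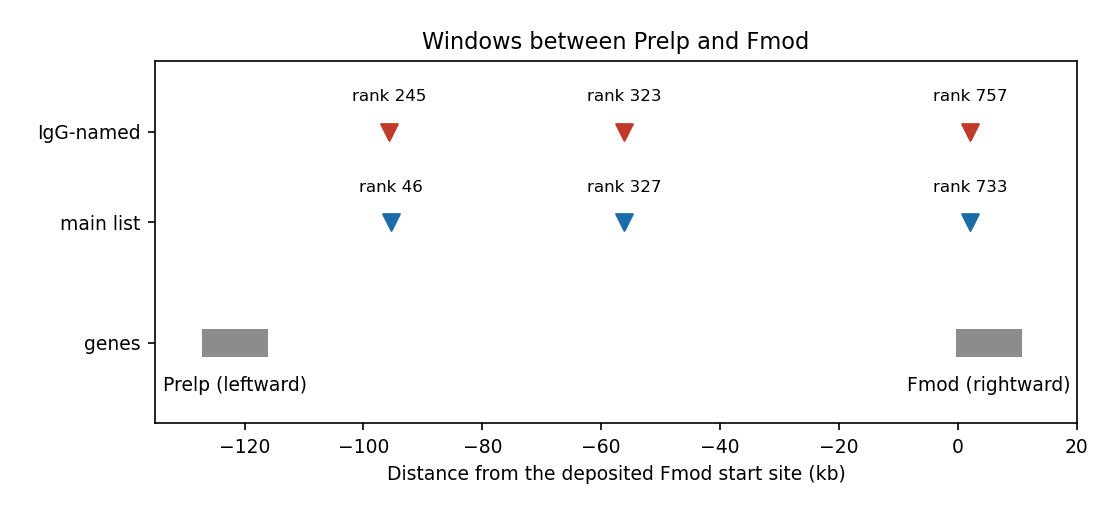
Windows listed for Fmod, by distance from the Fmod start site in kb (horizontal axis, negative values upstream), with 1 row per ranked list and the bodies of Prelp and Fmod as grey bars; arrow marks give position and the number above each is its rank. A reader should see 2 windows between the 2 genes and 1 just inside Fmod, at nearly the same places in both lists, with rank 46 in the main list set against 245 in the other.

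Comp (gene 12845, plus strand) encodes cartilage oligomeric matrix protein, a thrombospondin that links collagen to other matrix proteins. Its window, chr8:72895936-72896036, lay 1461 bp upstream of the TSS and ranked 634 and 636 in the main and IgG-named lists. Comp was the nearest gene, and Upf1, which acts in nonsense-mediated decay, started 18.8 kb away. It held 1 Runx match, 37.5 bp from the centre, and 3 more lay outside it within 250 bp of the centre.

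Tnxb (gene 81877, plus strand) encodes tenascin X, a large glycoprotein of loose and dense connective tissue that binds collagen. Its window, chr17:34818133-34818233, ranked 257 and 253 and was 10.7 kb downstream of the TSS, in intron 5 of all 3 GENCODE transcripts. The table named Crebl1 as nearest although the Tnxb TSS was nearer, at 10.7 kb against 34.1 kb for Crebl1 and 62.7 kb for C4b, a complement gene. It held 3 Runx matches, 2 of them 0.5 and 6.5 bp from the centre and only 7 bp apart, and an AP-1 site (TGACTCA) 30.0 bp from the centre. The IgG-named window was shifted by 26 bp and held the same 3 matches.

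Ddr2 (gene 18214, minus strand) encodes discoidin domain receptor 2, a receptor tyrosine kinase that fibrillar collagen activates. Its window, chr1:172066645-172066745, ranked 478 and 484 at the same position in both lists. It was 47.6 kb upstream of the TSS used in the table, whereas the Uap1 TSS was at 38.4 kb and the Uap1 transcript end at 5.44 kb, and Uap1 was listed as nearest. GENCODE has an earlier Ddr2 start, 26.1 kb from the window, which makes Ddr2 the nearest TSS in that annotation. The window held 2 TGTGGC matches 12 bp apart that face opposite ways, and a match to the NFI letters TTGGCA.

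Anxa2 (gene 12306, plus strand) encodes annexin A2, a calcium-dependent protein of membranes. The window at rank 111, chr9:69306139-69306239, was 4.70 kb downstream of the TSS, and the table's 5'UTR was again intron 1 in GENCODE (Anxa2-001). The IgG-named list ranked it 200, at a centre 38 bp upstream. There the window held 2 Runx matches, 1 of them 1.5 bp from the centre, while the main-list window held 1, at 39.5 bp. The main-list window also held 3 TEAD sites. Foxb1, with its TSS 303 kb away, was another listed neighbour.

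The other Anxa2 window, chr9:69279845-69279945, ranked 331 and 324 at the same position, 26.3 kb from the first and 21.6 kb upstream of Anxa2. It was in the last exon (16 of 16) of Narg2-001, in part of the coding sequence, 986 bp before the listed end of Narg2. Narg2 was listed as nearest for both windows, although its TSS was 60.4 and 34.1 kb away, farther than that of Anxa2. In GENCODE the nearest TSS to the rank 331 window was that of Gm4978, at 18959 bp, against 21532 bp for Anxa2. The Runx match in that window was 16.5 bp from the centre.

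Grem1 (gene 23892, minus strand) encodes gremlin 1, a secreted protein that binds BMPs and blocks their signal. Its window, chr2:113529943-113530043, ranked 673 and 668 at the same position in both lists. It was 68.8 kb downstream of the Grem1 TSS and 58.8 kb past the end of the gene, in an intron of Fmn1, the formin gene beside Grem1. Fmn1 was listed as nearest. Its listed TSS was 362 kb away, but the GENCODE transcript Fmn1-204 started 1.71 kb from the window. The remaining listed neighbour, 4930563P21Rik, had its TSS 404 kb away. The window held 1 Runx match, 13.5 bp from the centre, and its GC content of 39.6% was the lowest of the 12.

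To see which gene each window could belong to, the start sites of all listed neighbours were compared. One of the 9 genes was listed as the nearest gene in 6 of 12 windows, had the nearest listed TSS in 10 and the nearest GENCODE TSS in 9. Among all protein-coding GENCODE genes, 1774 were listed as a neighbour, 812 as a nearest gene and 811 with a nearest listed TSS. The latter count genes and not windows, so they were not compared with the former. The 2 windows in which another gene had the nearest listed TSS were the rank 46 window (Prelp) and that of Ddr2 (Uap1). No value here links a window to transcription of any neighbour. Within 5 kb of the gene's own TSS lay 4 of 12 windows, those of Loxl1, Comp, Fmod at rank 733 and Anxa2 at rank 111. By nearest listed TSS it was also 4 of 12, against 36.5% of all windows (Wilson 95% interval 33.6 to 39.5%, counting error only). Within 0.5 kb of the nearest listed TSS lay 1 of 12, that of Loxl1, against 25.4% of all windows (22.8 to 28.2%). Within 50 kb of the gene's own TSS lay 9 of 12 windows. Within 50 kb of the nearest listed TSS lay 10 of 12, against 69.9% of all windows.

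**Figure D2:**
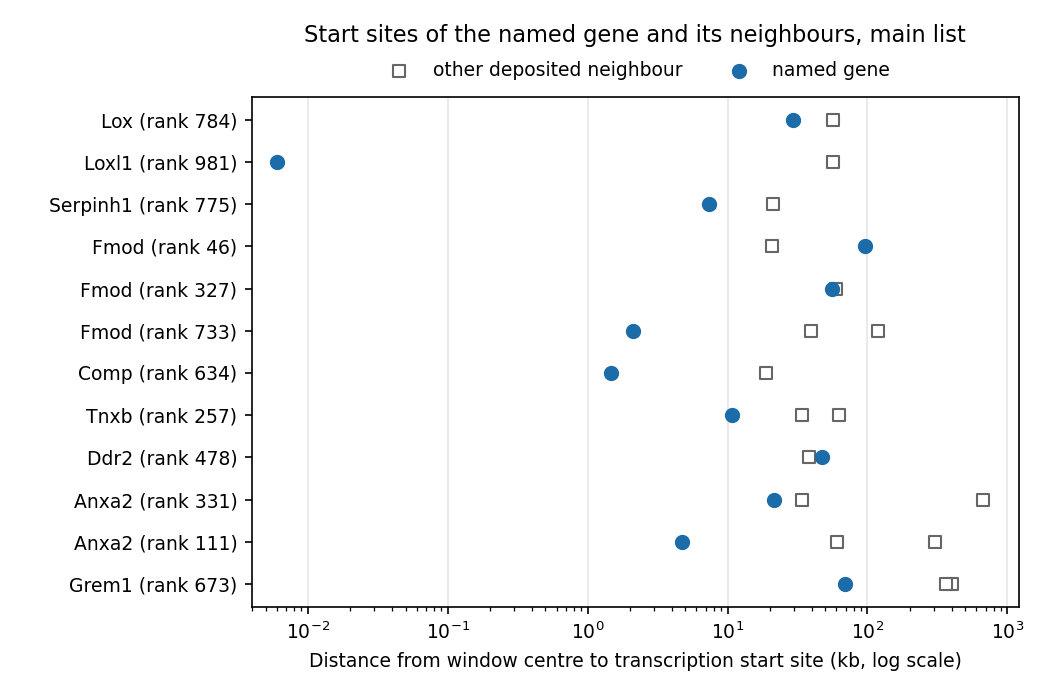
Distance in kb on a log scale (horizontal axis) from the centre of each main-list window to the start site of the named gene (filled circle) and of the other listed neighbours (open square), 1 row per window. A reader should see the circle left of every square in 10 of 12 rows, and to the right in the Fmod row of rank 46 and in the Ddr2 row.

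To see whether the peak list mattered for these windows, both lists were set side by side. Since both were called on the RUNX3-FLAG library, their overlap is no independent evidence. In both lists the 9 genes had 12 windows. Of the 12 main-list windows, 11 had an overlapping partner, against 912 of 1000 (91.2%) over the list, and 6 were identical, against 704 (70.4%). The median change in rank of the 11 was 7, as it was over all shared windows. Loxl1 changed by 517 ranks, and 2 of the 912 shared windows (0.219%), Loxl1 included, changed by at least that much. Anxa2 at rank 111 changed by 89, and 13 of the shared windows (1.43%), itself included, changed by at least that much. The other 9 shared windows changed by 2 to 36 ranks.

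**Figure D3:**
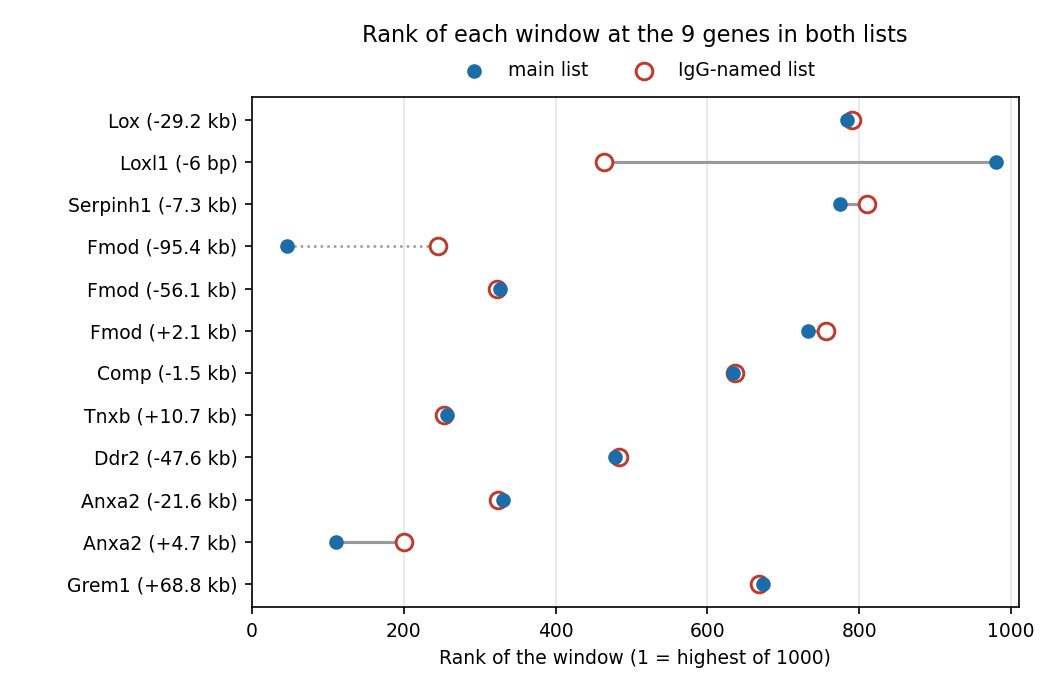
Rank (horizontal axis, 1 is the highest of 1000) of each window at the 9 genes in the main list (filled circle) and the IgG-named list (open circle), with the distance to the gene's start site beside the gene name; a dotted line joins 2 windows that do not overlap. A reader should see Loxl1 move from 981 to 464, Fmod from 46 to 245 and Anxa2 from 111 to 200, while the other pairs sit close together.

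The Runx motif was not used to choose the genes, but the genes were chosen with results of these data known, so shares are given beside those of the whole list without a test. The paper recovered this motif, already predicted for Runx, from the top peaks of the same experiment. Its share over the list is therefore not independent of these data. The motif was found in 10 of 12 windows (83.3%, Wilson 95% interval 55.2 to 95.3%) and in 66.1% of all windows (63.1 to 69.0%). These intervals give counting error only. The 12 windows are part of the whole list and some share a gene, so the 2 shares were not compared. The IgG-named list gave 11 of 12 and 66.6%. With only TGTGGT and TGCGGT counted, the main list gave 7 of 12 (58.3%), against 52.9% of all windows. Of the 24 flanking windows, taken 500 bp to the left and right of these, 2 (8.33%) held it, against 321 of 2000 (16.1%) around all windows. The 16 matches in the 12 windows were 9 TGTGGT, 6 TGTGGC and 1 TGCGGC. The closest match was a median of 15.0 bp from the centre in the 10 windows with one, and 15.5 bp over all such windows. At least 2 matches were found in 3 of 12 windows, those of Tnxb, Ddr2 and Fmod at rank 733, against 19.6% of all windows. Within 250 bp of the centre all 12 had a match, as did 93.5% of all windows.

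Sites of other factors were sought on both strands in the same windows. The TEAD letters GGAATG were found in 3 of 12 windows (Fmod at rank 46, Anxa2 at rank 111 and Lox), against 11.6% of all windows. AP-1 (TGANTCA) was found in 2 of 12, Tnxb and Fmod at rank 327, against 11.3%. NFI letters (TTGGCA) were in 1 of 12, against 8.4%, E-boxes (CANNTG) in 3 of 12, against 37.1%, and SOX letters (AACAAT) in 0 of 12, against 2.7%. With 12 windows, the 95% interval of 3 of 12 runs from 8.89 to 53.2% and that of 0 of 12 from 0 to 24.2%, so none of these shares is precise. A match is a string of letters and not a bound site. The median GC content was 53.0%, against 54.5% of all windows.

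**Figure D4:**
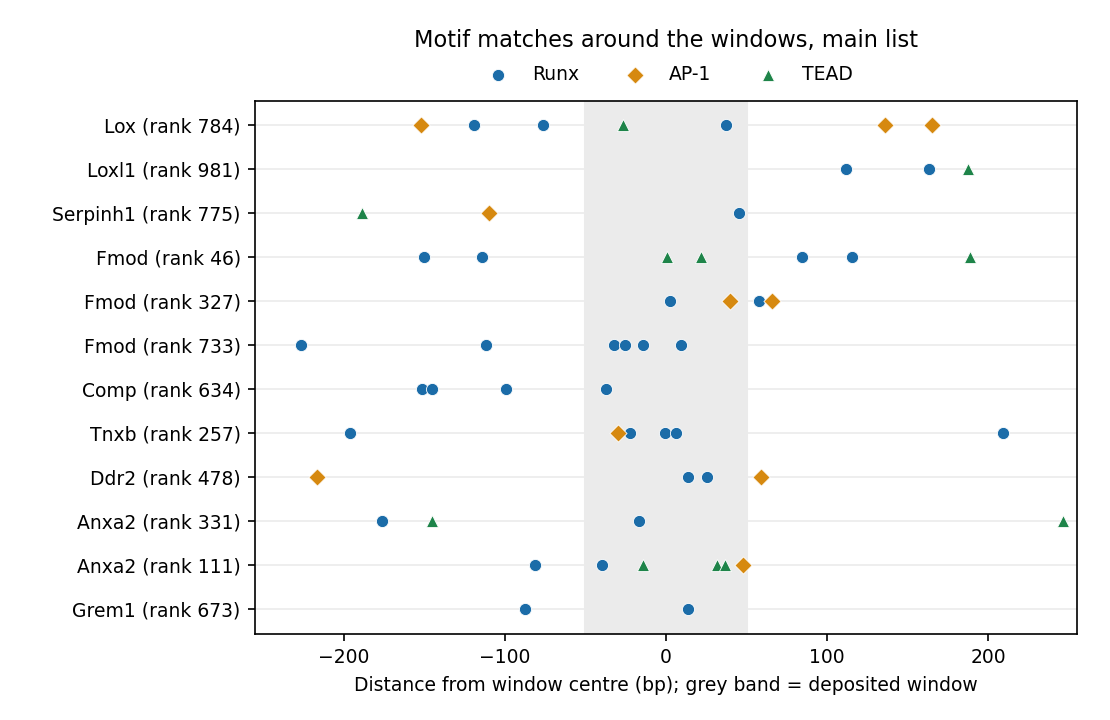
Matches of the Runx (circle), AP-1 (diamond) and TEAD (triangle) letters by distance in bp from the window centre (horizontal axis), 1 row per main-list window at the 9 genes; the grey band is the deposited window of 101 bp. A reader should see Runx matches inside the band in 10 rows, 3 rows with more than 1, and none inside it for Loxl1 and Fmod at rank 46.

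RefSeq promoters (GRCm38.p6, 250 bases before to 50 after the start) were matched by symbol for 6 of the 9 genes, and 1 of the 6, Fmod, held the Runx letters. Of all 32851 promoters, 45.2% did. Lox, Loxl1 and Comp were not matched.

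To place the 9 genes among other genes of their pathway, a list of 90 genes was read by role, which was written with results of these data known. Of its 90 genes, 25 were listed as neighbours of a window, and 16 of these were among the 81 genes that are not members of the 9. Over the protein-coding genes of GENCODE, 7.98% were listed as neighbours (1774 of 22232). The 9 genes entered the list because they had windows. The other 81 were also written with results of these data known, so nothing is read from their count against that share. Of the 16 genes, 15 had a window other than the 12 described above, and 1, Prelp, had only windows of Fmod. As nearest gene, 9 of the 81 were listed, where 3.65% of the GENCODE genes were (812 of 22232). By nearest TSS it was 6 of the 81, where 811 of 22232 (3.65%) were.

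By role, the 81 genes gave 2 of 16 for crosslinking and hydroxylation, P4ha2 (a prolyl 4-hydroxylase subunit, rank 679, 40.9 kb) and Tgm2 (a transglutaminase, rank 934, 81.6 kb), neither of them nearest. Lysyl oxidases Loxl2, Loxl3 and Loxl4 and the lysyl hydroxylases Plod1, Plod2 and Plod3 had no window in the list of 1000. Chaperones and secretion gave 2 of 7, P4hb (protein disulfide isomerase, rank 374, 18.0 kb) and Tram2 (rank 590, 89.6 kb). The procollagen processing genes, such as Bmp1 and Adamts2, gave 0 of 8. A gene without a window among the top 1000 may still have had one below that rank, since lower windows are not analysed here.

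Fibril-binding genes gave 8 of 27. Emilin1, of elastic fibres, had a window 5.1 kb upstream at rank 271 and Eln, which encodes elastin, had one 25.5 kb upstream at rank 704. Prelp had the 3 windows already listed for Fmod. The others, Thbs1, Thbs3, Matn1, Fn1 and Fbn2, had windows between 12.4 and 471 kb from their start sites, at ranks 371 to 995. Decorin, biglycan and lumican (Dcn, Bgn and Lum), which bind fibrils as fibromodulin does, had no window in the list.

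Among the receptors, 1 of 7 had a window, Itga11, the collagen-binding integrin alpha 11, with ranks 142 (in an intron, 34.6 kb from its start), 310 and 529. Anxa5 was 1 of 4 annexins and partners, with an intronic window at rank 270, 26.3 kb from the start. BMP antagonists gave 2 of 12, Nbl1 (ranks 121, 685 and 984) and Twsg1 (rank 570). The IgG-named list gave 15 of 81 in place of 16. There Fbn2 had no window, and P4ha2 had a different one, at rank 986 and 113 kb from its start. Nbl1 kept only a window at rank 124.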

How the data were processed

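The deposited files were 2 ranked lists of windows and 2 tables of their neighbouring genes, all from the RUNX3-FLAG library. The methods state alignment with bowtie (unmasked mm9) and peak calling with CisGenome against input, with filters on P value and false discovery rate. The deposited ranks, positions and distances in bp are those of the authors' tables. Depth is unknown. Deposited ends exceeded starts by 100. Of 1779 genes matched to GENCODE by symbol, 614 had a lower end 1 below it, 63 had the same, and the rest had neither. On that count positions were taken to start at 0. That windows include both ends was assumed.

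The 9 genes, the pathway list and the motifs were chosen with earlier results of these data known. Named genes were the 9, all listed neighbours of their windows, and pathway genes with a window. Other names were added to state a count of 0 or a nearest TSS. Windows of the lists were paired by centre, closest first, and an overlap of 1 bp or more made a pair shared. Motifs were read from the NCBIM37 genome (mm9) and features from GENCODE vM1. Stretches of 31 bases were counted on both strands. Shares have Wilson 95% intervals. The motif search found 200 of 200 motifs planted in 1000 simulated windows. Those windows had first been cleared of the motif with the same search, so its false matches could not be counted. The tools were Python 3.11.15, numpy 2.4.6, pandas 2.3.3, scipy 1.17.1, pysam 0.24.0 and matplotlib 3.10.9.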

Additional observations from a re-analysis of the deposited data

How the results depend on the processing

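Of 19 alternatives over 5 results, 12 stayed within 1.5 times the value reported and 7 did not. The count of 12 windows became 5 when only the upper part of the list, about 1 window in 3, was kept, and 6 where a member had to be the listed nearest gene. The 4 windows within 5 kb of the gene's own TSS became 1 within 0.5 kb and 9 within 50 kb. The 11 shared windows became 6 when only identical ones counted, and the 25 pathway genes became 14 by nearest gene and 14 by nearest TSS. Each of these alternatives is stricter or wider by construction. Some alternatives that stayed within 1.5 times could not have left that range. These were the wider motif windows, centres within 500 bp, and leaving out the Serpinh1 window. The number that stayed is therefore no measure of robustness. Counting without the Serpinh1 repeat window (11 windows, 9 with the Runx motif) and GENCODE starts for the distance (4 windows within 5 kb) were chosen after seeing the data.

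No paired analysis was possible because RUNX3-FLAG, IgG and input were single libraries, and there was no replicate to leave out. Depth is unknown, and ranks have no stated precision.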
